A study of Caenorhabditis elegans with 6 samples.

Results

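A set of 9 well-known genes of the heat-shock and chaperone families was followed in an iCLIP experiment on early C. elegans embryos, taken by their symbols from the deposited count table. They were the cytosolic HSP70 genes hsp-1 and hsp-70, the cytosolic HSP90 gene daf-21, the endoplasmic reticulum (ER) HSP70 genes hsp-3 and hsp-4, the mitochondrial chaperone genes hsp-6 and hsp-60, and the small heat-shock genes hsp-16.2 and sip-1. All 9 were found, each as 1 gene of the 46646 in the table. Of those 46646 genes, 9268 had a read in any library, and 7 of the 9 members were among them. iCLIP crosslinks RNA to protein with ultraviolet light, immunoprecipitates the protein and sequences the short RNA fragments that come with it.

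RNA was recovered with an anti-GFP antibody from embryos of 3 groups, each with 2 libraries. In the MEG-3::GFP group GFP was inserted at the meg-3 locus on chromosome X, and in the PGL-1::GFP group at the pgl-1 locus on chromosome IV. The third group expressed GFP alone, and the only strain of that kind in the study's strain list carries a transgene driven by the pie-1 promoter, a germline promoter, in an unc-119 background. Each group was 1 strain, embryos were pooled from cultures of many adults, and the study describes its MEG-3::GFP experiments as independent. Whether the 2 libraries of each group came from separate cultures is not given in the sources used here, so p-values measure only the spread between these libraries. Animals of all groups were grown at 20 °C, embryos were exposed 3 times to 400 mJ/cm2 of ultraviolet light, and no heat shock was part of the experiment. MEG-3 is an intrinsically disordered protein of the gel phase of P granules, the RNA-rich condensates of the embryonic germ lineage, and PGL-1 belongs to their liquid phase. The comparison asks which RNAs were recovered with each of the granule proteins beyond those recovered with GFP.

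Chaperones bind unfolded or partly folded proteins and keep them from aggregating. HSP70 proteins cycle between ATP- and ADP-bound states on short hydrophobic stretches of a client, with HSP40 (DnaJ) proteins that load the client and exchange factors that release it. HSP90 acts later, on near-native clients such as kinases, chaperonins enclose a client in a barrel, and small heat-shock proteins hold clients without using ATP. Each compartment of the cell has its own set, and some genes are transcribed at all times while others are switched on by the heat-shock factor HSF-1 or by stress of the ER or mitochondria.

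The MEG-3::GFP libraries held 225609 and 280007 reads assigned to genes, the PGL-1::GFP libraries 21180 and 92593, and the GFP libraries 26531 and 14040. Between 1025 and 7961 genes had a read in a library. A count of 0 therefore allows up to 13.3 and 10.7 CPM (counts per 1000000 reads of the library) in the MEG-3::GFP libraries, 142 and 32.4 CPM in the PGL-1::GFP libraries and 113 and 214 CPM in the GFP libraries, taking 3 reads as the limit. Of 5 genes of the maternal germline and early embryo, pos-1, mex-5, nos-2 and oma-1 had 163 to 836 reads with MEG-3::GFP, 1 to 101 with PGL-1::GFP and 0 to 123 with GFP. Relative to library totals, pos-1 and mex-5 were higher in GFP replicate 1 (123 and 113 reads) than in either MEG-3::GFP library. By the same measure, nos-2 and oma-1 were lower in both GFP libraries than in both MEG-3::GFP libraries. The fifth gene, glh-1, had 1 and 2 reads with MEG-3::GFP, 0 and 8 with PGL-1::GFP and none with GFP. The adult intestinal yolk protein genes vit-2, vit-5 and vit-6 had 1 read in all, in PGL-1::GFP replicate 2. The 3 body wall muscle genes unc-54, unc-15 and myo-3 had 0 to 23 reads with MEG-3::GFP, 0 to 18 with PGL-1::GFP and 0 to 27 with GFP. These marker counts are not scaled to depth, so their order between groups is not an order of levels. The tagged gene meg-3 itself had 1986 and 635 reads with MEG-3::GFP, 119 and 27 with PGL-1::GFP and 8 and 0 with GFP. The other tagged gene, pgl-1, had 44 and 33 reads with MEG-3::GFP, 53 and 24 with PGL-1::GFP and 0 and 0 with GFP. The GFP libraries carry another library name series than the others, and if that marks a batch, it cannot be told apart from the control group.

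The 9 genes together took 0.641% of the reads in MEG-3::GFP replicate 1 (95% Wilson interval 0.609 to 0.675%) and 0.646% in replicate 2 (0.617 to 0.676%). Their share in PGL-1::GFP was 0.109% (0.0724 to 0.163%) in replicate 1 and 0.370% (0.333 to 0.412%) in replicate 2. With GFP it was 0.403% (0.334 to 0.487%) and 0.292% (0.215 to 0.396%). Both MEG-3::GFP shares were above the shares in the other 4 libraries, while those of PGL-1::GFP and GFP overlapped. With 2 libraries against 2, an exact two-sided permutation test cannot go below p = 0.333, and these intervals and all limits cover counting error only. The members' reads numbered 1446 and 1808 with MEG-3::GFP, 23 and 343 with PGL-1::GFP and 107 and 41 with GFP, so the values of PGL-1::GFP replicate 1 and of GFP rest on few reads.

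**Figure D1:**
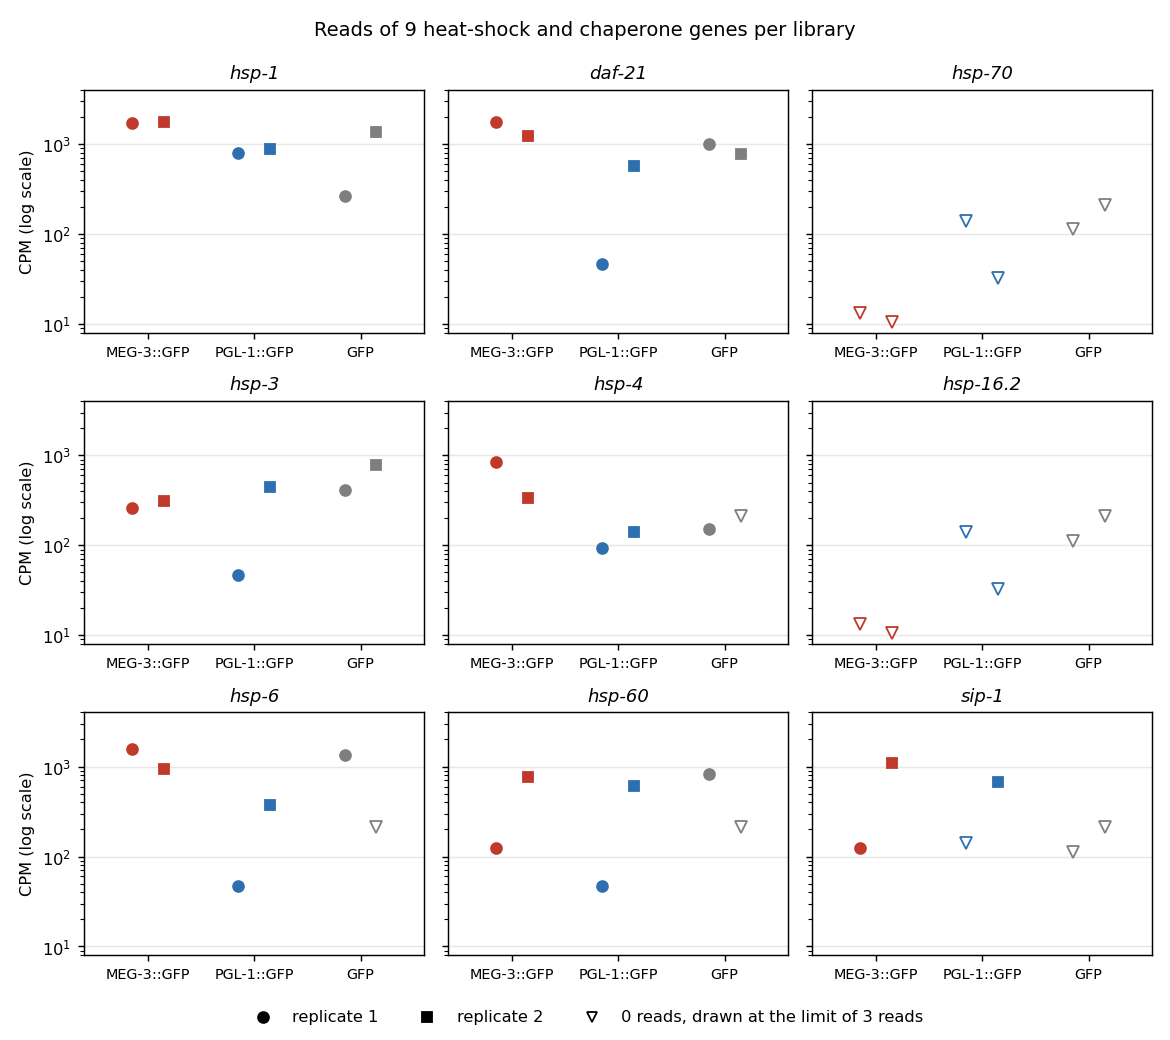
CPM of each of the 9 genes (log axis) in the 6 libraries, 2 per group with MEG-3::GFP on the left and GFP on the right, with circles for replicate 1, squares for replicate 2 and open triangles for libraries with 0 reads, drawn at the limit of 3 reads. hsp-1 was at 1706 and 1768 CPM with MEG-3::GFP and above all other libraries, sip-1 had no read with GFP, and hsp-70 and hsp-16.2 had no read in any library.

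hsp-1 (F26D10.3, WBcel235 chromosome IV, 17278959 to 17281330) encodes the constitutive cytosolic HSP70, the counterpart of mammalian HSC70. It had 385 and 495 reads with MEG-3::GFP, 17 and 82 with PGL-1::GFP and 7 and 19 with GFP. Scaled to depth this was 1706 and 1768 CPM with MEG-3::GFP, 803 and 886 CPM with PGL-1::GFP and 264 and 1353 CPM with GFP. Both MEG-3::GFP libraries lay above all 4 others, and the PGL-1::GFP libraries lay between the 2 GFP libraries, which were themselves 5.13-fold apart. hsp-1 had the highest CPM of the 9 in both PGL-1::GFP libraries and in GFP replicate 2, and it ranked 59 and 51 among all genes in the MEG-3::GFP libraries. The annotated snoRNA F26D10.24 lies within the gene's span and had 4 and 0 reads of its own with MEG-3::GFP, 0 and 10 with PGL-1::GFP and 0 and 4 with GFP. Whether strand was used in the counting is not given in the sources used here, so reads of overlapping genes may not be told apart.

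daf-21 (C47E8.5, chromosome V, 14686160 to 14688539) encodes the cytosolic HSP90. It had 398 and 347 reads with MEG-3::GFP, 1 and 53 with PGL-1::GFP and 27 and 11 with GFP. The CPM were 1764 and 1239 with MEG-3::GFP, 47.2 and 572 with PGL-1::GFP and 1018 and 783 with GFP. The 3 groups did not overlap: the MEG-3::GFP libraries were the highest, the GFP libraries came next and the PGL-1::GFP libraries were the lowest. daf-21 was the only one of the 9 with both PGL-1::GFP libraries below both GFP libraries, and its value in PGL-1::GFP replicate 1 is a single read. Among the 2033 genes with enough reads to be tested, 10.5% had PGL-1::GFP below GFP in this way. Both MEG-3::GFP libraries were above both GFP libraries in 28.6% of them. The share of genes with all 3 groups in the order of daf-21 was not computed.

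hsp-70 (C12C8.1, chromosome I, 9320325 to 9322519), a cytosolic HSP70 gene known for its strong induction by heat, had 0 reads in all 6 libraries. The tightest limits came from MEG-3::GFP, where 0 reads allow up to 13.3 and 10.7 CPM. The gene lies within the span of uggt-2, which also had 0 reads in every library. No difference between groups was detectable for hsp-70 at this depth.

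hsp-3 and hsp-4 both encode BiP, the HSP70 of the ER lumen, and hsp-4 is the gene commonly used to read the ER unfolded protein response. hsp-4 (F43E2.8, chromosome II, 7350119 to 7352518) had 190 and 95 reads with MEG-3::GFP, 2 and 13 with PGL-1::GFP and 4 and 0 with GFP. Its CPM were 842 and 339 with MEG-3::GFP, 94.4 and 140 with PGL-1::GFP and 151 and 0 with GFP. Both MEG-3::GFP libraries were above the 4 others, also above the 214 CPM that 0 reads allow in GFP replicate 2, and the 2 MEG-3::GFP libraries differed 2.48-fold.

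hsp-3 (C15H9.6, chromosome X, 6089033 to 6091785) had 59 and 87 reads with MEG-3::GFP, 1 and 41 with PGL-1::GFP and 11 and 11 with GFP. The CPM were 262 and 311 with MEG-3::GFP, 47.2 and 443 with PGL-1::GFP and 415 and 783 with GFP. hsp-3 was the only member whose MEG-3::GFP libraries both lay below both GFP libraries, a position held by 10.0% of the 2033 genes tested. Each of its GFP values comes from 11 reads.

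The pair of BiP genes was also compared within libraries, where depth cancels. hsp-4 took 76.3% of the pair's reads in MEG-3::GFP replicate 1 (95% Clopper-Pearson interval 70.5 to 81.4%) and 52.2% in replicate 2 (44.7 to 59.6%). In PGL-1::GFP replicate 2 it took 24.1% (13.5 to 37.6%), and PGL-1::GFP replicate 1 held only 3 reads of the pair. With GFP it took 26.7% of 15 reads (7.79 to 55.1%) in replicate 1 and 0 of 11 reads in replicate 2, which allows up to 28.5%. The hsp-4 share was higher in both MEG-3::GFP libraries than in PGL-1::GFP replicate 2 and in both GFP libraries, although the interval of GFP replicate 1 overlapped that of MEG-3::GFP replicate 2. The 2 MEG-3::GFP intervals do not overlap, so the spread between these replicates was larger than counting error.

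hsp-6 (C37H5.8, chromosome V, 4824124 to 4826760) encodes the mitochondrial HSP70. It had 358 and 260 reads with MEG-3::GFP, 1 and 35 with PGL-1::GFP and 36 and 0 with GFP. The CPM were 1587 and 929 with MEG-3::GFP, 47.2 and 378 with PGL-1::GFP and 1357 and 0 with GFP. MEG-3::GFP was above PGL-1::GFP in every library, but GFP replicate 1 lay between the 2 MEG-3::GFP libraries.

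hsp-60 (Y22D7AL.5, chromosome III, 1619742 to 1625803) encodes the mitochondrial chaperonin, the barrel-forming partner of HSP10. It had 28 and 214 reads with MEG-3::GFP, 1 and 57 with PGL-1::GFP and 22 and 0 with GFP. Its CPM were 124 and 764 with MEG-3::GFP, 47.2 and 616 with PGL-1::GFP and 829 and 0 with GFP. The groups overlapped in all 3 comparisons, and the highest value was that of GFP replicate 1.

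hsp-6 and hsp-60 are read side by side as reporters of mitochondrial stress, yet their reads did not keep a fixed ratio across libraries. hsp-6 took 92.7% of the pair's reads in MEG-3::GFP replicate 1 (95% Clopper-Pearson interval 89.7 to 95.1%) and 54.9% in replicate 2 (50.2 to 59.4%). Its share was 38.0% in PGL-1::GFP replicate 2 (28.1 to 48.8%) and 62.1% in GFP replicate 1 (48.4 to 74.5%), while PGL-1::GFP replicate 1 held 2 reads of the pair and GFP replicate 2 none. The difference between the MEG-3::GFP replicates was larger than counting error. For the cytosolic pair, daf-21 took 50.8% (47.3 to 54.4%) and 41.2% (37.9 to 44.6%) of the reads of daf-21 and hsp-1 with MEG-3::GFP, 5.56% of 18 reads and 39.3% (31.0 to 48.0%) with PGL-1::GFP, and 79.4% (62.1 to 91.3%) and 36.7% (19.9 to 56.1%) with GFP.

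**Figure D2:**
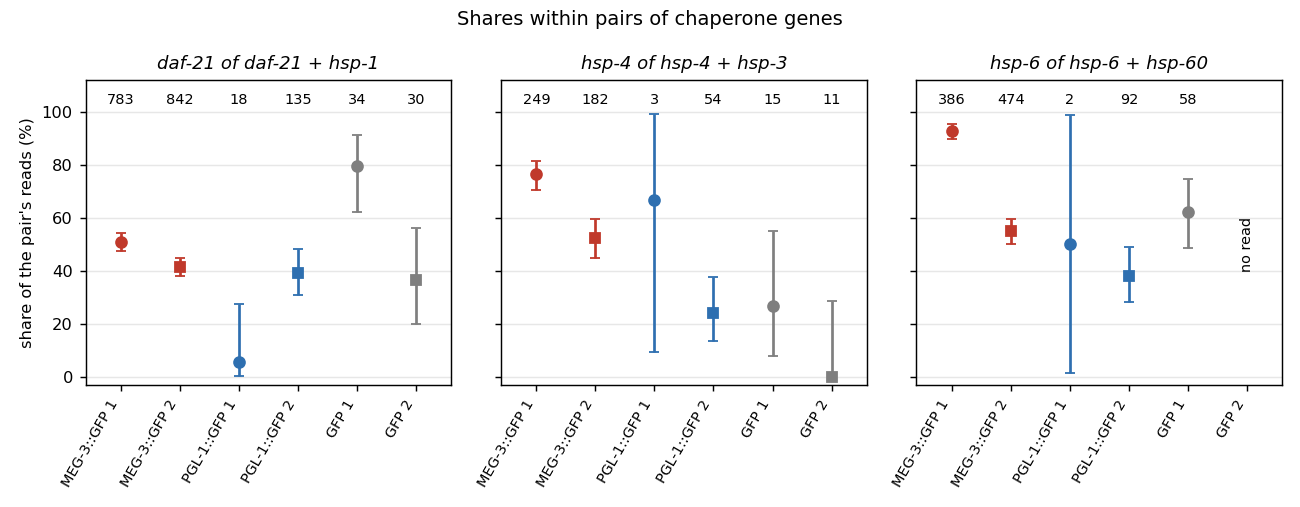
Share (%) of the first gene in the reads of each gene pair per library, MEG-3::GFP to the left, then PGL-1::GFP and GFP, with 95% Clopper-Pearson intervals and the pair's number of reads above each point. hsp-4 took 76.3 and 52.2% with MEG-3::GFP, 66.7% of 3 reads and 24.1% with PGL-1::GFP, and 26.7 and 0% with GFP. The daf-21 shares with MEG-3::GFP lay within the range of the other libraries. In each pair the intervals of the MEG-3::GFP replicates did not overlap.

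sip-1 (F43D9.4, chromosome III, 10506106 to 10506801) encodes a small heat-shock protein of the embryo that is made without heat stress. It had 28 and 310 reads with MEG-3::GFP, 0 and 62 with PGL-1::GFP and 0 and 0 with GFP. The CPM were 124 and 1107 with MEG-3::GFP, 0 and 670 with PGL-1::GFP and 0 in both GFP libraries. Against the mean limit of 163 CPM that 3 reads per GFP library allow, the mean MEG-3::GFP level of 616 CPM was at least 3.77-fold higher and the mean PGL-1::GFP level of 335 CPM at least 2.05-fold higher. Both bounds rested on 1 library of the group: without MEG-3::GFP replicate 2 the level (124 CPM) was under the limit, and without MEG-3::GFP replicate 1 the bound was 6.78-fold. Likewise, without PGL-1::GFP replicate 2 no read was left, and without PGL-1::GFP replicate 1 the bound was 4.10-fold. The annotated noncoding RNA F43D9.8 overlaps sip-1 and had 0 reads in every library.

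hsp-16.2 (Y46H3A.3, chromosome V, 1804334 to 1804957), a small heat-shock gene widely used as a heat-stress reporter, had 0 reads in all 6 libraries. Of the 7 other hsp-16 genes, 6 (hsp-16.1, hsp-16.11, hsp-16.20, hsp-16.21, hsp-16.48 and hsp-16.49) had 0 reads as well. The remaining one, hsp-16.41, which lies 220 bp from hsp-16.2, had 97 and 0 reads with MEG-3::GFP, 0 and 0 with PGL-1::GFP and 1 and 14 with GFP. Its reads were thus present in 1 MEG-3::GFP library and absent from the other, where 0 reads allow up to 10.7 CPM against 429.9 CPM in replicate 1. With GFP it was at 37.7 and 997 CPM, so its highest level was that of GFP replicate 2, from 14 reads. Several hsp-16 genes are near-identical copies, and how reads with several matches were counted is not given in the sources used here, so the count of any one of them is uncertain.

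In its methods the study took 60 reads as the background threshold, set from the GFP libraries. At 60 reads or more in both MEG-3::GFP libraries stood 4 of the 9 genes (hsp-1, daf-21, hsp-6 and hsp-4), where 7.09% of the 9268 genes with a read in any library, and 7.86% of the protein-coding ones, reached it. Of these 4, hsp-4 had 95 reads in its lower library, and hsp-3 was just outside the threshold with 59. Without MEG-3::GFP replicate 1 the count was 7, with hsp-3, hsp-60 and sip-1 added, and with counts scaled to the median library total of 59562 reads it was 2, hsp-1 and daf-21. None of the 9 reached 60 reads in both PGL-1::GFP libraries, where 0.194% of genes did, and hsp-1 and sip-1 reached it in PGL-1::GFP replicate 2 alone. None reached it in both GFP libraries, where 0.0432% of genes did. The threshold is a number of reads and so a different level in each library: 60 reads are 266 and 214 CPM with MEG-3::GFP, 2833 and 648 CPM with PGL-1::GFP and 2262 and 4274 CPM with GFP. The highest value of any member in any library was 1768 CPM, so no member at that level could have reached 60 reads in either GFP library or in PGL-1::GFP replicate 1.

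**Figure D3:**
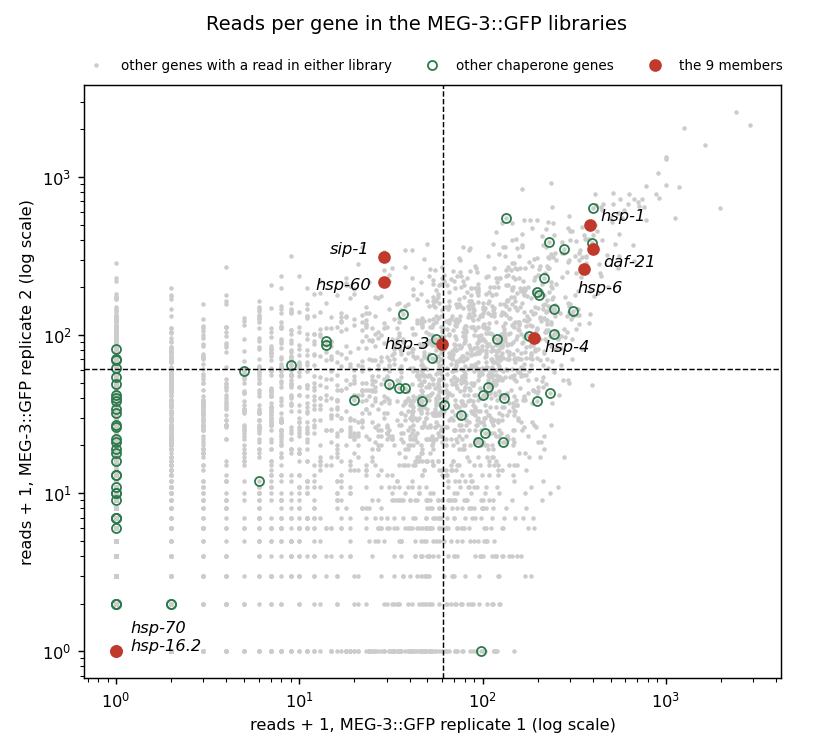
Reads + 1 of each gene in MEG-3::GFP replicate 1 against replicate 2 (both axes log), with the 9 members as filled red points, 91 other chaperone genes (those with a read in either library) as open green circles, all other genes in gray and dashed lines at 60 reads. hsp-1, daf-21, hsp-6 and hsp-4 were past both lines, hsp-3 sat at the line with 59 and 87 reads, and sip-1 and hsp-60 passed it in replicate 2 only, with 310 and 214 reads.

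The groups were then compared library by library in CPM, among the 2033 genes with enough reads to be tested, which included 7 members and left out hsp-70 and hsp-16.2. Both MEG-3::GFP libraries were above both GFP libraries for 4 members (hsp-1, hsp-4, daf-21 and sip-1), against 28.6% of all genes tested, and below both for 1 member (hsp-3), against 10.0%. hsp-4 passed the low-count filter (168 CPM in 2 libraries) through the MEG-3::GFP libraries alone, and sip-1 through MEG-3::GFP replicate 2 and PGL-1::GFP replicate 2, so the place of either above GFP, or of hsp-4 above PGL-1::GFP, is no support for a difference. For sip-1 the lower MEG-3::GFP value, 124 CPM, is under the 214 CPM that 0 reads allow in GFP replicate 2. No member had both PGL-1::GFP libraries above both GFP libraries, where 6.74% of genes did, and daf-21 was below, as were 10.5% of genes. Without GFP replicate 1 the number above was 3, and without GFP replicate 2 or PGL-1::GFP replicate 1 it was 1. MEG-3::GFP was above PGL-1::GFP in every library for 4 members (hsp-1, hsp-4, hsp-6 and daf-21), against 29.4% of genes, and below for none, against 5.26%. MEG-3::GFP also had the deepest libraries, and the part of depth in these orders was not tested.

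In edgeR's quasi-likelihood fit of the counts, adjusted by Benjamini and Hochberg over 2033 genes, no member was called in any comparison, and no other gene was: 0.0% were called for MEG-3::GFP over GFP, 0.0% for PGL-1::GFP over GFP and 0.0% for MEG-3::GFP over PGL-1::GFP. At an unadjusted p under 0.05 there were 17 higher and 46 lower genes for MEG-3::GFP over GFP, 10 higher and 6 lower for PGL-1::GFP over GFP, and 0 higher and 26 lower for MEG-3::GFP over PGL-1::GFP. DESeq2 called 0 higher and 44 lower genes for MEG-3::GFP over GFP, none for PGL-1::GFP over GFP and 0 higher and 2 lower for MEG-3::GFP over PGL-1::GFP, none of them a member. It gave an adjusted p to 1402, 2033 and 772 of the 2033 genes in these comparisons, and a gene without one could not be called. The estimated common dispersion was 1.93, a coefficient of variation of 1.39 between libraries of a group.

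For MEG-3::GFP over GFP the log2 fold changes of the members lay beside a median of 0.73 over all genes tested, 64.5% of which were above 0. They were 3.14 (SE 2.75) for hsp-4, 1.46 (SE 2.06) for hsp-1, 1.19 (SE 2.21) for hsp-6, 1.07 (SE 2.11) for daf-21, 0.45 (SE 2.40) for hsp-60 and -0.71 (SE 2.44) for hsp-3. With DESeq2's size factors hsp-1 was at 0.29, daf-21 at 0.28 and hsp-3 at -1.71. Without GFP replicate 1 hsp-1 was at 0.71 and hsp-4 at 9.25, fitted against a library with 0 reads, and without GFP replicate 2 they were at 2.74 and 1.96. Only for hsp-4 and sip-1 was the fold change larger than its standard error. sip-1 had an unadjusted p of 0.0377 by edgeR and, like the other 6, an adjusted p of 0.999. Its fitted log2 fold change of 9.19 (SE 4.42) is taken against libraries with 0 reads and depends on the small count that the fit adds. The bound of at least 3.77-fold, given in its place, rested on MEG-3::GFP replicate 2, without which the level was under the limit. sip-1 also passed the low-count filter without a GFP library, so neither value is support for a difference.

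For PGL-1::GFP over GFP the median of all genes was -0.05, and the members were at 0.59 (SE 2.63) for hsp-4, 0.08 (SE 2.03) for hsp-1, -0.08 (SE 2.41) for hsp-60, -1.01 (SE 2.46) for hsp-3, -1.26 (SE 2.13) for daf-21 and -1.43 (SE 2.24) for hsp-6, with an edgeR adjusted p of 0.999 for each. These 2 comparisons share the GFP libraries. For MEG-3::GFP over PGL-1::GFP all 7 values were above 0, as were 66.7% of all genes tested, whose median was 0.88. The 7 values ranged between 0.30 (SE 2.41) for hsp-3 and 2.62 (SE 2.31) for hsp-6. hsp-4 was at 2.56 (SE 2.61), daf-21 at 2.33 (SE 2.18), hsp-1 at 1.38 (SE 2.04), sip-1 at 0.95 (SE 2.42) and hsp-60 at 0.53 (SE 2.39), each with an edgeR adjusted p of 1. With DESeq2's size factors the median over all genes was 0.19 for MEG-3::GFP over GFP and 0.25 for MEG-3::GFP over PGL-1::GFP, and hsp-3 and hsp-60 turned to -0.28 and -0.06 in the second of these. With the same size factors hsp-1 turned to -0.40 and hsp-60 to 0.20 for PGL-1::GFP over GFP.

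**Figure D4:**
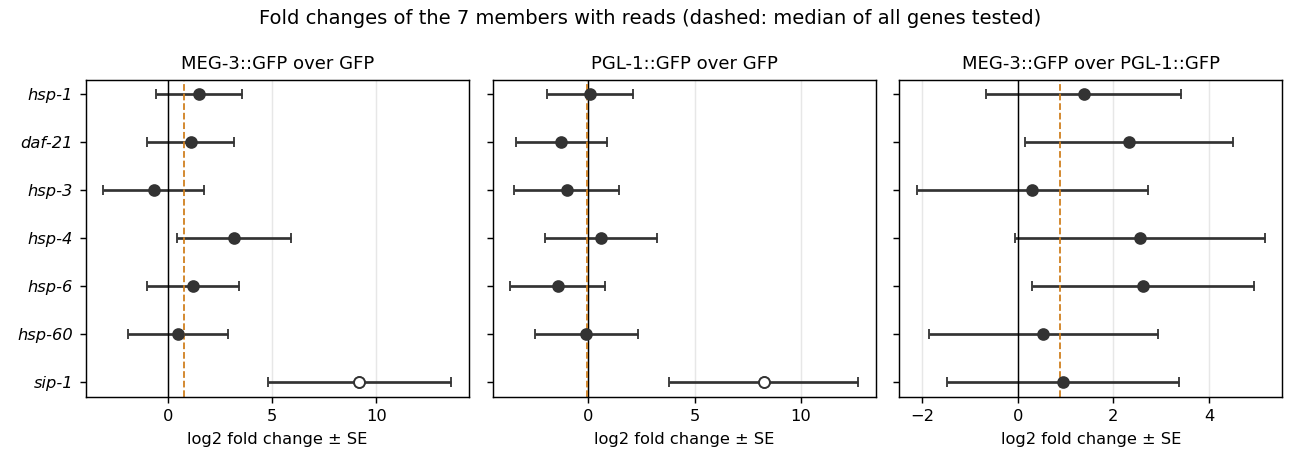
Log2 fold changes of the 7 members with reads and their standard errors (bars), for MEG-3::GFP over GFP, PGL-1::GFP over GFP and MEG-3::GFP over PGL-1::GFP, with a dashed line at the median of all genes tested. Most bars span 0, for example 1.46 (SE 2.06) for hsp-1 in the left panel, and the open points for sip-1 are fitted against GFP libraries with 0 reads.

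The members differed in how closely the 2 MEG-3::GFP libraries matched. hsp-1 and hsp-3 were near-equal, with 1.04-fold and 1.19-fold more CPM in replicate 2. daf-21, hsp-6 and hsp-4 were 1.42-fold, 1.71-fold and 2.48-fold higher in replicate 1, and hsp-60 and sip-1 were 6.16-fold and 8.92-fold higher in replicate 2. On the log2 scale with 1 read added, sip-1 (3.11) and hsp-60 (2.58) were past the median absolute difference over all tested genes, 1.44, and the 5 others were within it. With PGL-1::GFP the replicates of daf-21 and hsp-60 were 12.12-fold and 13.04-fold apart, but with 1 read each in replicate 1, while hsp-1, with 17 and 82 reads, differed 1.103-fold.

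Levels were set against each other per kilobase of gene span from start to end, introns included. With MEG-3::GFP the order was sip-1 (884.5 ± 999 CPM per kb, SD, n = 2), hsp-1 (732 ± 18.3), daf-21 (631 ± 156), hsp-6 (477 ± 177), hsp-4 (246 ± 148), hsp-3 (104 ± 12.63) and hsp-60 (73.3 ± 74.7). The place of sip-1 is not settled, since its libraries were at 178 and 1591 CPM per kb. The last place of hsp-60 holds per kb of span only. Its span of 6.06 kb is the longest of the members, and its mean of 444 ± 453 CPM was above the 286 ± 34.8 CPM of hsp-3. Neighbours from hsp-1 to hsp-6 overlapped, hsp-6 and hsp-4 were apart by only 352 against 351 CPM per kb in their nearest libraries, and hsp-3 and hsp-60 overlapped. hsp-1 was above hsp-6 in both libraries, and hsp-4 was above hsp-3. Per kb the mean levels with PGL-1::GFP were 481 ± 680 for sip-1 and 356 ± 24.7 for hsp-1, with the other 5 at 130 ± 156 (daf-21) or lower. With GFP daf-21 was highest, at 378 ± 69.6, followed by hsp-1 at 341 ± 325, and these overlapped.

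The wider chaperone system was covered by 91 other genes in 8 lists, 77 of them with a read in any library, 34 of them tested and none called by edgeR in any comparison. Of the 91, 13 reached 60 reads in both MEG-3::GFP libraries, beside 7.09% of all genes with a read, and none did so in both PGL-1::GFP libraries, beside 0.194%. The CCT chaperonin, the cytosolic barrel that folds actin and tubulin, together with HSP10 held 6 of those 13 among its 9 genes. Within it cct-8 had 229 and 389 reads with MEG-3::GFP, 0 and 42 with PGL-1::GFP and 7 and 0 with GFP, and cct-6 had 312 and 141 reads with MEG-3::GFP, 1 and 24 with PGL-1::GFP and 3 and 0 with GFP. Both MEG-3::GFP libraries were above both GFP libraries for 5 of the 8 tested, where 28.6% of all genes tested were. cct-4 passed the low-count filter through the MEG-3::GFP libraries alone. cct-1, cct-5 and cct-6 passed it through MEG-3::GFP and PGL-1::GFP replicate 2, with no GFP library past it. Neither this count nor the list's fold changes over GFP are therefore support for a difference. The list's median log2 fold change over GFP was 3.82 in its 8 tested genes (2.86 with the 1 gene at 0 in both GFP libraries set at its bound), beside 0.73 over all genes, and 1 of the 8 had an unadjusted p under 0.05.

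The ER folding list, with protein disulfide isomerases and lectin chaperones, had 4 of 7 genes at the threshold and a median log2 fold change of 1.08 for MEG-3::GFP over GFP. Its cnx-1 and pdi-6 passed the low-count filter without a GFP library, so this median is no support for a difference. Its pdi-3 had 399 and 633 reads with MEG-3::GFP, 5 and 53 with PGL-1::GFP and 10 and 21 with GFP. pdi-1 had 203 and 177 reads with MEG-3::GFP, 15 and 78 with PGL-1::GFP and 37 and 3 with GFP. In CPM pdi-1 was at 900 and 632 with MEG-3::GFP and 1395 and 214 with GFP, so the groups overlapped.

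One further gene each from the HSP70, HSP90 and DnaJ lists reached the threshold. hsp-110, the exchange factor of cytosolic HSP70, had 396 and 380 reads with MEG-3::GFP, 0 and 51 with PGL-1::GFP and 13 and 0 with GFP, close to the counts of daf-21 with MEG-3::GFP. Its log2 fold change over GFP was 2.94 (SE 2.36, edgeR adjusted p = 0.999). enpl-1, the ER member of the HSP90 family, had 133 and 550 reads with MEG-3::GFP, 0 and 66 with PGL-1::GFP and 10 and 0 with GFP. dnj-5 had 277 and 349 reads with MEG-3::GFP, 1 and 59 with PGL-1::GFP and 29 and 2 with GFP. The HSP70 list held 1 of 8 genes at the threshold, the HSP90 list with its co-chaperones 1 of 9 and the DnaJ list 1 of 29. Their median log2 fold changes over GFP were 2.94 in 3 tested HSP70 genes (2.68 with the 1 gene at 0 in GFP set at its bound), 1.39 in 5 HSP90 genes (1.15 likewise) and 0.46 in 8 DnaJ genes, beside 0.73 over all genes. T24H7.2 and stc-1 of the HSP70 list and pph-5 and unc-45 of the HSP90 list passed the low-count filter without a GFP library. fkb-6 of the HSP90 list and dnj-20 passed it without a MEG-3::GFP library. The filter thus bears on these medians, which are no support for a difference.

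The other named genes of these lists were under 60 reads in at least 1 MEG-3::GFP library. cdc-37, the HSP90 co-chaperone for kinases, had 198 and 37 reads with MEG-3::GFP, 0 and 4 with PGL-1::GFP and 1 and 0 with GFP. dnj-12 had 232 and 42 reads with MEG-3::GFP, 0 and 18 with PGL-1::GFP and 8 and 4 with GFP. The prefoldin subunit gene pfd-6 had 128 and 20 reads with MEG-3::GFP, 0 and 3 with PGL-1::GFP and 2 and 0 with GFP, and pfd-3 had 19 and 38 with MEG-3::GFP, 0 and 2 with PGL-1::GFP and 1 and 0 with GFP. No prefoldin gene was among those tested. stc-1 of the HSP70 list had 46 and 37 reads with MEG-3::GFP, 0 and 20 with PGL-1::GFP and 0 in both GFP libraries.

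hsf-1, the gene of the transcription factor that drives the heat-shock response, had 36 and 134 reads with MEG-3::GFP, 0 and 24 with PGL-1::GFP and 18 and 9 with GFP. In CPM it was at 160 and 479 with MEG-3::GFP and 678 and 641 with GFP. Both MEG-3::GFP libraries thus lay below both GFP libraries, as in 10.0% of all genes tested. chn-1, the CHIP ubiquitin ligase gene, had 100 and 41 reads with MEG-3::GFP, 0 and 8 with PGL-1::GFP and 8 and 1 with GFP. Of the 15 other small heat-shock genes 4 had a read, and apart from hsp-16.41 these were near 0 with MEG-3::GFP, such as hsp-25 with 0 and 1 reads with MEG-3::GFP, 0 and 1 with PGL-1::GFP and 0 in both GFP libraries.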

How the data were processed

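The authors clipped adaptors (fastx_clipper) and barcodes (custom code), mapped the reads with HISAT2 (version 2.1.0 per the submitters' processing notes) to genome release ws235, collapsed PCR duplicates and ran HTSeq-count. What they deposited are counts for each gene in each library, neither normalized nor pooled. Counting options, strand setting, annotation and the treatment of reads with several matches are not given in the sources used here. Identifiers on several rows (438, with identical counts) were used once. Names, positions and gene types came from the RefSeq table of WBcel235, which matched 45583 of 46646 genes by identifier. CPM were computed from library totals, from 14040 to 280007 reads, so precision was lowest in GFP and in PGL-1::GFP replicate 1. Groups were tested with edgeR 4.0.16 (R 4.3.3, quasi-likelihood test, TMM, default low-count filter for 3 groups, Benjamini-Hochberg adjustment, called at 0.05) in 1 fit of all 6 libraries. A standard error here is the size of a log2 fold change over the root of its F statistic. Alternatives were DESeq2 1.42.0, other scalings and filters, a replicate block and leaving out each library. Members and gene lists were chosen with earlier results of these data known. Named were all members, the tagged genes and, per list, the 2 genes most read on average with MEG-3::GFP, with hsp-110 and the hsp-16 genes. The embryo, muscle and intestine marker genes were added later, with results known. Sequences of promoters and proteins were not analysed here.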

Additional observations from a re-analysis of the deposited data

How the results depend on the processing

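No member was called by edgeR or DESeq2 in any comparison under any alternative, with member adjusted p, where given, from 0.433 to 1.0. The study's threshold count of 4 members in MEG-3::GFP became 7 with 60 reads in either library and 2 (hsp-1 and daf-21) with counts scaled to the median total of 59562 reads, and lay between 4 and 7 when each library was left out. For PGL-1::GFP the count was 2 with either library and 0 to 2 without 1 library. The number of members with PGL-1::GFP above GFP lay between 0 and 3 without 1 library. Whether the replicate numbers pair the samples is not settled. The correlations of replicate differences were low (0.05, -0.05 and 0.19), but the few reads of the smaller libraries could hide a pairing. With the replicate block 0 genes were called, and hsp-60 turned to -0.85 for MEG-3::GFP over GFP on the log2 scale. With DESeq2 size factors and in the DESeq2 test, hsp-1 for PGL-1::GFP over GFP was at -0.40 and -0.40, hsp-60 at 0.20 and 0.21 (0.059 with every gene with a read), and for MEG-3::GFP over PGL-1::GFP hsp-3 was at -0.28 and -0.28 and hsp-60 at -0.061 and -0.056. The cause of these turns was not tested. Leaving out each library turned further directions. For MEG-3::GFP over GFP the ranges were -0.10 to 10.35 for hsp-6 and -1.48 to 8.91 for hsp-60. In PGL-1::GFP over GFP they were -0.67 to 1.91 for hsp-1, -4.02 to 0.11 for hsp-3, -0.24 to 6.69 for hsp-4, -4.25 to 7.73 for hsp-6 and -3.55 to 8.38 for hsp-60. For MEG-3::GFP over PGL-1::GFP they were -0.92 to 3.32 for hsp-3, -1.40 to 3.99 for hsp-60 and -1.45 to 9.24 for sip-1. Values against libraries left with 0 reads depend on the count the fit adds. Unadjusted p under 0.05 was reached by 17 higher and 46 lower genes for MEG-3::GFP over GFP, against 12 and 100 with every gene with a read, 10 and 81 with DESeq2 size factors, and 5 and 21 with the block. Promoter motifs, protein identity and levels per coding length were not run.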
